A study of Oryctolagus cuniculus with 3 samples.

Results

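Genes of red cells were followed in rabbit embryos stored frozen or vitrified as morulae: the globins HBA1 and HBB2, the haem synthesis enzymes ALAS2 and FECH, and the red cell genes BPGM, EPB41 and CA2. These 7 of 6797 named genes of the value table had 17 of its 22839 probes, and all 17 were on the array with no further probe of these genes outside the table. The genes were chosen with their ratios on these arrays known, so every ratio and signal given for them is a description, and no test result is given for them. Frozen embryos were slow-frozen morulae. Vitrified embryos were morulae passed at 20 °C through dimethyl sulphoxide and ethylene glycol and plunged into liquid nitrogen. The steps were 12.5% of each for 2 min and then 20% of each for 30 s. Sucrose at 0.33 M is also listed for the samples. How the slow-freezing was done is not stated in the labels. In both groups the morulae came from artificial insemination, were recovered on day 3, were transferred to recipient does and were collected at 6 days of age. Each of 3 Agilent 2-colour rabbit arrays held total RNA of frozen embryos in one channel and of vitrified embryos in the other. The labels call the arrays biological replicates, without giving how many embryos or does stand behind each RNA sample.

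Haemoglobin joins alpha-globin and beta-globin chains around haem. Haem is built in steps that start with an aminolevulinate synthase, of which ALAS2 is the form of red cell precursors, and end with ferrochelatase, FECH, which inserts the iron. Red blood cells form in the embryo only after gastrulation, first in the yolk sac.

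The 60-base probes that carry the globin result are shown first, since each measures a different stretch of RNA. Letters are those of the deposited scanner files, 5′ to 3′. Each had at least 1 reading frame that was open over its length or closed by a stop codon at its last 3 bases. Capitals mark the closing stop codon in the second HBA1 probe and, in HBQ1, a theta-globin that lies beside the alpha-globin gene, the 14 bases that differ from that HBA1 probe; the other 46 of 60 were the same.
HBA1, transcript bases 53 to 112: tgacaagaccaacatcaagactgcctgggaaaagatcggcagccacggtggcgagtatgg
HBA1, transcript bases 405 to 464: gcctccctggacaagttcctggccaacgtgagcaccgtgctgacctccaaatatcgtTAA
HBQ1, transcript bases 369 to 428: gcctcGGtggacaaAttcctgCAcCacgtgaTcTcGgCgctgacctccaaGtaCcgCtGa
HBB2, transcript bases 290 to 349: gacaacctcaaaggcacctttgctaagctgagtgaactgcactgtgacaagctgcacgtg
ALAS2, transcript bases 1131 to 1190: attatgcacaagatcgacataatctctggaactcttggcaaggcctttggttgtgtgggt
The HBB2 probe shared no run longer than 7 bases with either HBA1 probe shown, but was not compared with the whole HBA1 transcript. The scanner files place it at chr1:146237830-146237889 and the ALAS2 probe at chrX:36434483-36435107, a span longer than the probe itself; they leave the HBA1 and HBQ1 probes unmapped, and name no build. Coordinates run from high to low for HBB2 and ALAS2, the only sign of a strand in the files. HBB2 is the one beta-globin entry of the RefSeq table used for names, which lists HBB and HBB1 as its synonyms, and HBA1 is listed there as HBA with HBA2 as another synonym. Near-identical gene copies therefore cannot be told apart by these probes.

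Both globins were far higher in one embryo group than in the other on every array, but not in the same group each time. The values below are log2 ratios of frozen over vitrified, so that a positive value means a higher signal in frozen embryos. HBB2, the beta chain, had 2.62 on replicate 1, -3.77 on replicate 2 and -3.59 on replicate 3 at its brighter probe. That is a 6.15-fold higher signal in frozen embryos on replicate 1 and a 13.6-fold lower one on replicate 2. The other HBB2 probe, designed from a 3′ sequence tag and sharing no position with the first, had 2.55, -3.99 and -3.86 on the same arrays. It was much dimmer, with log2 signals of 9.85 and 6.18 in frozen embryos of replicates 1 and 3 against 7.31 and 10.04 in vitrified embryos, and had the same signs. HBA1, the alpha chain, had 2.51, -3.19 and -2.55 on replicates 1, 2 and 3 at its 5′ probe. Its 2 probes near the 3′ end, which share 48 bases, had 1.84 and 1.88 on replicate 1, -2.41 and -2.23 on replicate 2 and -1.86 and -1.79 on replicate 3. Every globin probe was thus above 0 on replicate 1 and below 0 on the other arrays, with smaller ratios at the 3′ end of HBA1 than at its 5′ end.

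**Figure D1:**
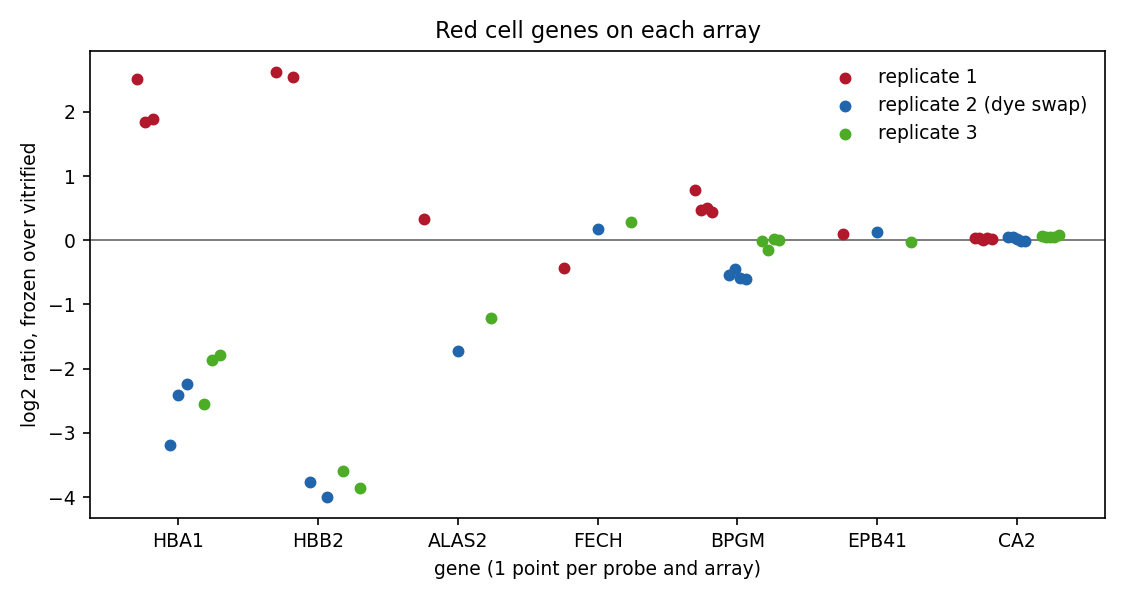
Log2 ratio of frozen over vitrified embryos (vertical axis) for each of the 17 probes, by gene (horizontal axis) and array (colour; replicate 2 is the dye swap). The 5 probes of HBA1 and HBB2 lie above 1.8 on replicate 1 and below -1.7 on replicates 2 and 3, ALAS2 follows on replicates 2 and 3, and CA2 lies close to 0.

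The mean over the arrays does not show this. HBB2 averaged -1.58 ± 3.64 and HBA1 -0.71 ± 2.26 (SD, n = 3, brightest probes), spreads more than 2 times the size of the means. The direction of the column of replicate 2 is likely but not stated (its basis is given with the processing), and with its sign turned the means were 0.93 for HBB2 and 0.77 for HBA1. Replicates 1 and 3 opposed each other under either reading, and for these the labels state the same dyes and the scanner files fix the direction. In limma's moderated test against 0 with Benjamini-Hochberg adjustment, 0 of all 22839 probes (0%) had an adjusted p under 0.05, and 1020 (4.47%) had an unadjusted p under 0.05. The count over all probes was 796 without replicate 1 and 0 without replicate 2 or 3.

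The signals in the 2 arrays with scanner files show which embryos were high. For HBB2 the log2 processed signal of the brighter probe was 14.85 and 11.97 in the frozen embryos of replicates 1 and 3, against 12.23 and 15.56 in the vitrified embryos of the same arrays. The groups overlapped: the highest sample was vitrified, the lowest was frozen, and each group held 1 high and 1 low sample. After setting each channel to its 75th percentile, HBB2 in frozen embryos was 6.67-fold higher on replicate 1 than on replicate 3, and in vitrified embryos it was 11.1-fold higher on replicate 3 than on replicate 1. Embryos stored the same way thus differed by folds of the same order as embryos stored differently. For HBA1 the brightest probe had 12.54 and 11.22 in frozen embryos of replicates 1 and 3, against 10.66 and 13.01 in vitrified embryos. Its order over the 4 samples put the same 2 samples at the top and the other 2 below, and the frozen sample of replicate 1 was 2.27-fold above that of replicate 3. Its 5′ probe had 9.65 and 7.49 in frozen embryos against 7.14 and 10.03 in vitrified embryos. All 5 globin probes were well above background in all 4 samples and none was saturated. Over the whole array 66.0% and 68.6% of probes were well above background in frozen embryos of replicates 1 and 3, against 54.4% and 58.3% in vitrified embryos. In such whole-embryo RNA, a difference in the number of cells with globin RNA and one in globin RNA per cell cannot be told apart. Which cells held the globin RNA was not measured.

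**Figure D2:**
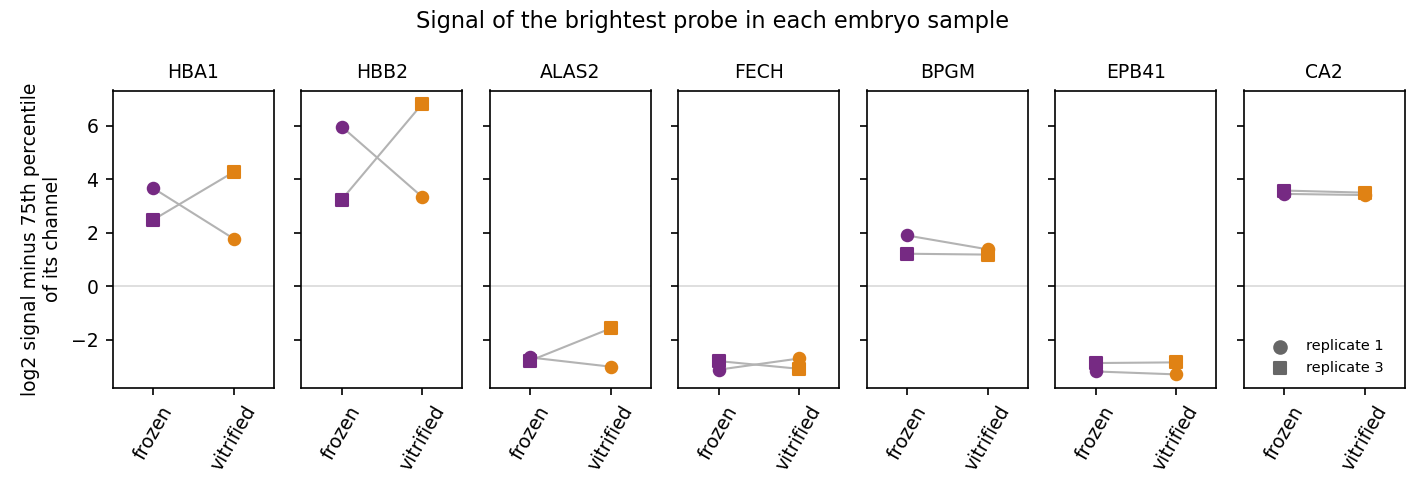
Log2 signal of the brightest probe of each gene minus the 75th percentile of its channel (vertical axis), in frozen and vitrified embryos (horizontal axis) of replicates 1 (circles) and 3 (squares), with a line joining the samples of an array. The lines of HBA1 and HBB2 cross, with HBB2 at 5.97 and 3.23 in frozen and 3.34 and 6.82 in vitrified embryos of replicates 1 and 3, while those of CA2 nearly coincide.

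Few probes of the array had ratios of this size. All 5 globin probes were at least 2-fold apart on every array, as were 0.149% of all probes. On replicates 1, 2 and 3 taken singly, 5, 6 and 6 of the 17 were that far apart, the sixth being that of ALAS2, against 4.12%, 1.42% and 2.11% of all probes. By size of the ratio, the brighter HBB2 probe ranked 5 of 22839 on replicate 1 and 2 on both other arrays, and the other HBB2 probe ranked 12, 1 and 1. The 5′ probe of HBA1 ranked 13, 4 and 8 on replicates 1, 2 and 3. At least 2-fold higher in frozen embryos on replicate 1 and at least 2-fold lower on replicates 2 and 3 were 19 of 22839 probes (0.0832%), among them the 5 globin probes. The mirrored pattern was met by 2 probes (0.00876%), both of PDCL2, and by 0 of the 17. Since the genes were chosen on these ratios, the shares are given for scale only.

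**Figure D3:**
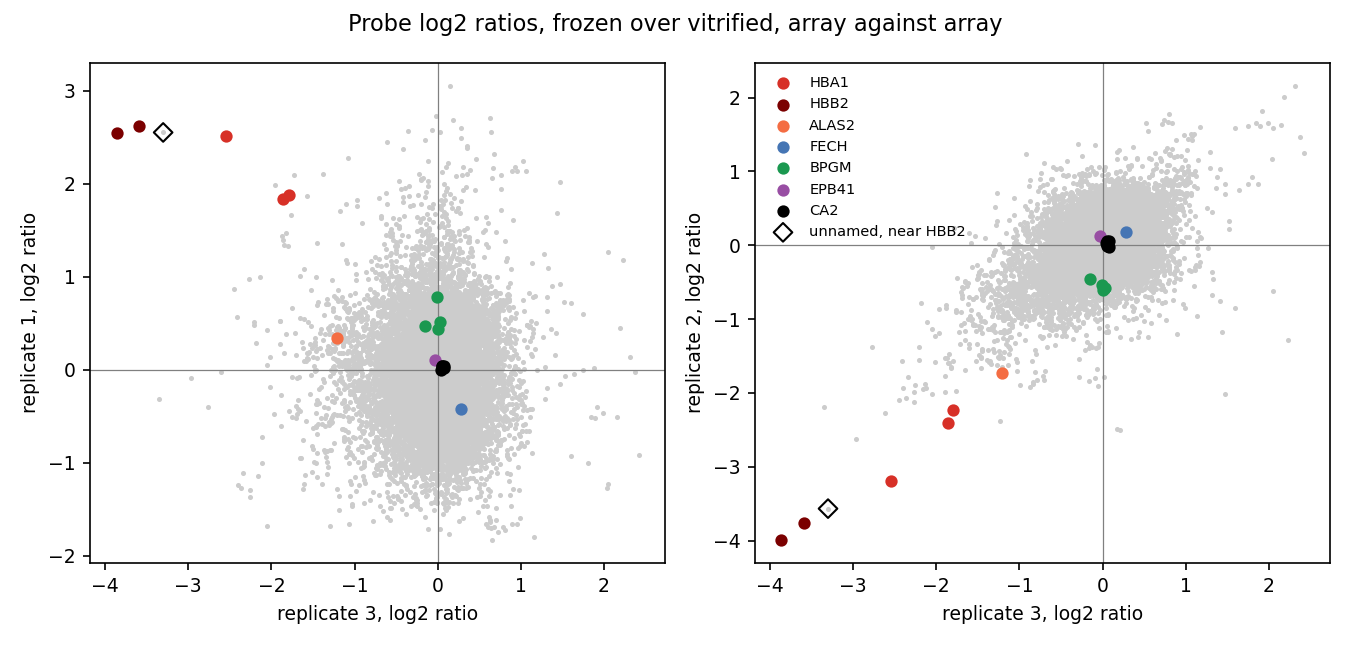
Log2 ratios of all 22839 probes (grey) and of the 17 probes (colours), replicate 1 against replicate 3 on the left and replicate 2 against replicate 3 on the right. The globin probes lie at the upper left and lower left edges of the cloud, and the open diamond is an unnamed probe near HBB2 on chromosome 1.

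A further probe near HBB2 moved with it. It carries no gene name in the files and is described here after its values were seen. It lies at chr1:146246695-146246754 in the coordinates of the files, 8393 bases beyond the nearest HBB2 probe, and was the only other probe of the table within 20000 bases of them.
Unnamed probe near HBB2: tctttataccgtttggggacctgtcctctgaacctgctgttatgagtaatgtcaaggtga
Its log2 ratios were 2.55, -3.57 and -3.30 on replicates 1, 2 and 3, between those of HBB2 and the 5′ probe of HBA1 on replicates 2 and 3. Its log2 signals were 11.69 and 8.43 in frozen embryos of replicates 1 and 3, against 9.14 and 11.73 in vitrified embryos. It shared no run longer than 7 bases with either HBB2 probe. As the probes cover different stretches, this does not tell whether it reads a globin RNA.

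ALAS2, the first enzyme of haem synthesis in red cell precursors, followed the globins on 2 of the 3 arrays. Its 1 probe had 0.34 on replicate 1, -1.73 on replicate 2 and -1.21 on replicate 3, with a mean of -0.87 ± 1.07 (SD, n = 3), or 0.28 with the sign of replicate 2 turned. The value of replicate 1 was 0.026 after normexp and loess and -0.13 from centred raw signals, so that no direction can be read from it. The log2 signals were 6.20 and 5.94 in frozen embryos of replicates 1 and 3, against 5.87 and 7.16 in vitrified embryos. The vitrified embryos of replicate 3 stood above the other samples, the vitrified embryos of replicate 1 were lowest, and the groups overlapped. On the same chromosome, 5 overlapping probes made from a sequence tag that the files describe as similar to aminolevulinate synthase were not in the value table. They were well above background in all 5 cases in the frozen sample of replicate 1 and the vitrified sample of replicate 3, in 4 cases in the frozen sample of replicate 3 and in 0 cases in the vitrified sample of replicate 1. Their log2 signals were 4.38 to 5.45 in the frozen sample of replicate 1 and 4.94 to 5.25 in the vitrified sample of replicate 3. They were 3.49 to 4.40 in the frozen sample of replicate 3 and 3.74 to 4.88 in the vitrified sample of replicate 1. The 4 and 0 cases therefore do not show a lower signal in the latter. Frozen minus vitrified was 0.07 to 1.21 on replicate 1 and -1.51 to -0.78 on replicate 3. These were the signs of the globins, but the vitrified sample of replicate 1 was not well above background. FECH, the last enzyme of the pathway, had -0.43, 0.18 and 0.28 on replicates 1, 2 and 3, opposite in sign to the globins on each array and small. Raw signals of replicate 1 gave 0.21, below the array median of 0.95, and -0.74 once centred, while normexp and loess gave -0.04. Replicate 3 gave -0.28 from centred raw signals and 0.11 after normexp and loess. The size on replicate 1 and the sign on replicate 3 thus depended on the processing, and no direction is read for FECH. It was dim, with log2 signals of 5.75 and 5.93 in frozen against 6.17 and 5.64 in vitrified embryos, and averaged 0.01 ± 0.38 (SD, n = 3).

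BPGM, which makes the 2,3-bisphosphoglycerate that loosens the grip of haemoglobin on oxygen, moved with the globins on replicates 1 and 2 only, and far less. Its 4 probes had 0.44 to 0.78 on replicate 1, -0.60 to -0.45 on replicate 2 and -0.16 to 0.03 on replicate 3. The brightest averaged -0.02 ± 0.55 (SD, n = 3). In log2 signal it had 10.77 and 9.95 in frozen embryos of replicates 1 and 3, against 10.26 and 9.92 in vitrified embryos. The pairs of probes at the 5′ part, which share 59 bases, and at the 3′ part of the transcript gave the same signs on replicates 1 and 2.

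EPB41, the protein 4.1 that ties the spectrin network to the red cell membrane, did not follow the globins. Its 1 probe had 0.10, 0.12 and -0.03 on replicates 1, 2 and 3, a mean of 0.06 ± 0.08 (SD, n = 3). Its log2 signals were 5.68 and 5.85 in frozen embryos of replicates 1 and 3, against 5.58 and 5.89 in vitrified embryos. CA2, a carbonic anhydrase abundant in red cells and present in many other tissues, varied least between arrays in the deposited values. Its 5 probes, which overlap by all but a few bases and so measure one site, lay between -0.02 and 0.08 on all 3 arrays. The brightest had log2 signals of 12.33 and 12.31 in frozen embryos of replicates 1 and 3, against 12.29 and 12.24 in vitrified embryos, and averaged 0.05 ± 0.02 (SD, n = 3). Over all 17 probes, 8 were above 0 on replicate 1 and below 0 on replicates 2 and 3, against 16.7% of all probes. They were the 5 globin probes, that of ALAS2 and 2 of BPGM.

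The other genes of the pathway did not share the globin pattern. Of 119 names in 9 lists, chosen with earlier results known and including synonyms, 65 had a named probe on the array and 45 were measured in the table. In limma's test 0 of the 45 passed after adjustment in either direction (0% of all probes), and 0 had an unadjusted p under 0.05. Their median log2 ratio was 0.00, as over all probes. At least 2-fold up on replicate 1 and down on the others were 0 of the 45 (0.0832% of all probes), and 5 had the signs of the globins, which 16.7% of all probes had. Of the other genes of haem synthesis all 7 were measured, among them ALAS1, the form of the first enzyme found in most tissues, and their medians were -0.04, -0.02 and 0.04 on replicates 1, 2 and 3. ALAD, the second enzyme, had -0.13 ± 0.03 and CPOX, a later mitochondrial enzyme, had 0.34 ± 0.33 (SD, n = 3). Among haem and iron transport genes, FTL, the ferritin light chain, had -0.27 ± 0.01, FLVCR1, a haem exporter, had -0.27 ± 0.29 and TFRC, the transferrin receptor, had -0.25 ± 0.57.

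Of other globins, HBQ1, whose probe resembles that of HBA1, had 0.42, -0.12 and 0.04 on replicates 1, 2 and 3, and log2 signals of 7.97 and 8.12 in frozen against 7.54 and 8.08 in vitrified embryos. NGB, the globin of neurons, had -0.02, -0.04 and -0.07. HP, haptoglobin, which binds free haemoglobin in plasma, had -0.65, -2.48 and 0.18 on replicates 1, 2 and 3, below 0 on replicates 1 and 2 and furthest on replicate 2. Its neighbours in the list of haem binding, HEBP1 and HEBP2, averaged -0.20 ± 0.17 and 0.17 ± 0.29 (SD, n = 3). Of the red cell membrane list 5 genes were measured. SLC2A1, the glucose carrier of red cells and many other cells, had 0.92, -0.36 and -0.08, MPP1, a membrane scaffold, had -0.80, 0.84 and 0.37, and TMOD1, which caps actin filaments, had -0.05, 0.62 and 0.03. Band 3, SLC4A1, the anion exchanger that defines the red cell membrane, was outside the table. Its log2 signals were 4.78 and 5.91 in frozen embryos of replicates 1 and 3, against 4.13 and 5.37 in vitrified embryos, and the third of these was not well above background. The samples highest for SLC4A1 were thus both of replicate 3, of which the vitrified one was also highest for the globins and the frozen one was not.

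**Figure D4:**
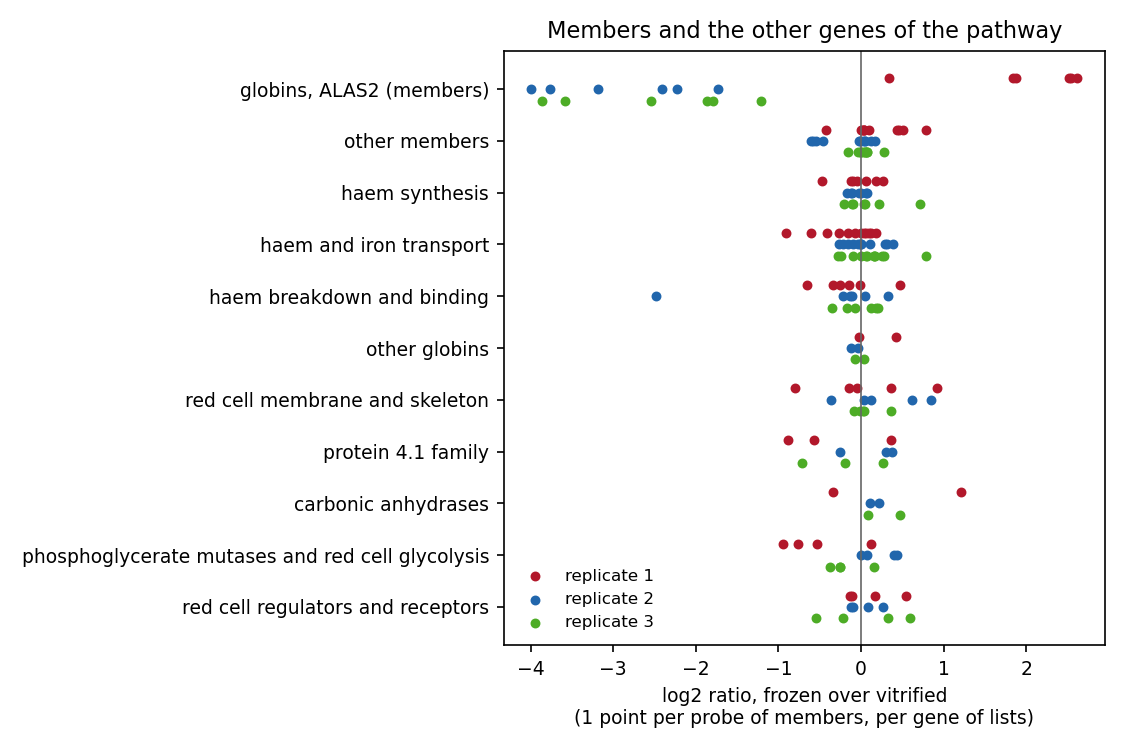
Log2 ratios of frozen over vitrified embryos (horizontal axis) by array (colour), 1 point per probe for the members and per gene (brightest probe) for the 9 lists. The globins and ALAS2 spread from -3.99 to 2.62, while HP on replicate 2, at -2.48, is the point of the lists furthest from 0.

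The remaining lists held relatives of the other members. In the protein 4.1 family EPB41L2 had 0.37, -0.25 and -0.71, EPB41L1 -0.57, 0.31 and -0.19 and EPB41L5 -0.89, 0.38 and 0.27 on replicates 1, 2 and 3. EPB41L2 thus had the signs of the globins and the other 2 did not. Of carbonic anhydrases, CA4, a membrane-bound form, had 1.21, 0.22 and 0.09, and CA13 had -0.33, 0.11 and 0.47. PGAM1, the glycolytic mutase related to BPGM, had -0.95, 0.44 and -0.25, opposite to BPGM on replicates 1 and 2. PGK1 had -0.53, 0.40 and -0.37, and PKM, which makes pyruvate, -0.76, 0.00 and -0.26. Of red cell regulators, EPOR, the erythropoietin receptor, had -0.13, 0.08 and 0.59, KIT, the receptor of stem cell factor, had -0.10, -0.12 and -0.22, and GATA2, which acts in blood precursors and in trophoblast, had 0.17, 0.26 and 0.33. GATA1, KLF1 and TAL1, the transcription factors of red cell precursors, are not analysed here.

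Among the other named genes, those nearest to the brightest HBA1 probe by Euclidean distance over the 3 arrays, each by its brightest probe, were not red cell genes. CPS1, an enzyme of the urea cycle, was nearest at a distance of 1.03, with 0.97, -2.12 and -2.26 on replicates 1, 2 and 3. WFDC2, a secreted protease inhibitor of epithelia, followed at 1.09, with 2.10, -1.17 and -1.72. LOC100344458, which the files describe as a predicted cytosolic beta-glucosidase, lay at 1.21 and FGD5, an exchange factor known from endothelium, at 1.22. RBP4, the plasma carrier of retinol, lay at 1.25 with 0.66, -1.98 and -1.76, and FGB, the fibrinogen beta chain, at 1.43. SRPX, DKK1, SERPINH1 and ANXA3 were at 1.46 to 1.60. For comparison, ALAS2 lay at 1.73 and HBB2, with its larger ratios, at 2.47. The distance is over 3 values and carries no test. The brightest HBA1 probe minus the 5′ probe of the same gene was -0.63, 0.95 and 0.75 on replicates 1, 2 and 3. The ranking may therefore depend on the probe used. Members and unnamed probes were left out, and of the red cell membrane list only 5 of 22 names were in the table. Few red cell genes could thus have been found.

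Markers of other cells were set beside the globins by the summed signal of each list, in linear processed units. The red cell list, with 3 of 10 names in the table, summed to 35511 and 6454 in frozen embryos of replicates 1 and 3, against 6467 and 56631 in vitrified embryos, nearly all of it globin. The leukocyte list, with 5 of 13 in the table, had 433 and 628 in frozen against 408 and 559 in vitrified embryos. These were CD4, CD8A, CD14, ITGAM and S100A9. The brightest, S100A9, had log2 signals of 7.37 and 7.86 in frozen against 6.84 and 7.62 in vitrified embryos. Of its genes outside the table, CD3E, CD74 and S100A8 were not well above background in any sample. PTPRC, which encodes CD45, had log2 signals of 4.31 and 1.35 in frozen against 3.52 and 1.97 in vitrified embryos of replicates 1 and 3. Only the first of these was well above background, and the sample highest for the globins was not. The uterine list, with 2 of 6, had 601 and 175 in frozen against 943 and 196 in vitrified embryos, most of it SCGB1A1, uteroglobin. SCGB1A1 had log2 signals of 9.15 and 7.16 in frozen against 9.81 and 7.03 in vitrified embryos, high on replicate 1 in both groups. HOXA11, the other gene, had 5.11 and 5.02 in frozen against 5.42 and 6.02 in vitrified embryos. It was highest in the vitrified embryos of replicate 3. The hypoblast list, with 7 of 12, had 3005 and 2555 in frozen against 2325 and 7210 in vitrified embryos, highest in the sample that was also highest for HBB2. Of its 7 measured genes 3, APOA1, RBP4 and DKK1, had the signs of the globins on all 3 arrays, against 16.7% of all probes, with 0.51, 0.66 and 0.59 on replicate 1, -1.38, -1.98 and -1.58 on replicate 2 and -2.20, -1.76 and -1.37 on replicate 3. The other 4, APOB, APOE, GATA4 and CER1, were below 0 on every array, with -0.27, -0.13, -0.50 and -0.59 on replicate 1. The endothelial list had 1 of 5 genes in the table, VWF, at 0.09, -0.79 and -0.66, and the platelet list 1 of 5, ITGA2B, at -0.57, -0.20 and -0.02. The trophoblast and epiblast lists had medians of 0.07 and -0.58, with 0 of 5 and 0 of 3 genes of the globin signs. The part of any of these cells in the globin result was not tested.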

How the data were processed

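The submitters' processing notes name Agilent Feature Extraction, version 10.10.1.1, for reading the arrays. The deposited scanner files of replicates 1 and 3 hold raw and processed intensity per channel (processed: detrended and dye-normalized, with background correction off, per the file headers), beside the log10 of Cy5 over Cy3. The deposited value table holds log2 ratios of all 3 arrays, with scale, centring and direction unstated. It equalled the log2 ratio of processed frozen over vitrified signals within 2.8e-06 and 2.4e-06 on replicates 1 and 3. Frozen embryos were in Cy5 there and in Cy3 on replicate 2, per the labels. Column medians were -0.015, 0.021 and 0.017. Over the 10 spike-in probes Pearson r was 0.99 for replicates 1 and 3, -1.00 for 1 and 2 and -1.00 for 2 and 3, so the column of replicate 2 had likely been turned to frozen over vitrified; it has no other basis. Over all probes, which are not independent, Pearson r was -0.36 between replicates 1 and 2, -0.01 between 1 and 3 and 0.48 between 2 and 3. For replicate 2 the value table alone was used. No other column of sample values was present (0 columns).

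Of 22839 non-control probes, 52.4% of the 43603 on the array, 14815 were named (8658 by accession, 5556 by gene ID, 366 by a shared transcript, 215 by symbol and 20 by synonym). A gene stands by its brightest probe. Ratios were tested against 0 with limma 3.58.1 in R 4.3.3 (lmFit, eBayes; Benjamini-Hochberg, 0.05), tested on simulated data first; tables were joined in Python 3.11.15. Signals were scaled to the 75th percentile of each channel, and normexp used an offset of 50. P-values measure the spread between these 3 arrays, whose number limits the precision. The members and lists were chosen with earlier results of these data known. The rule for named genes takes all 7 members, up to 3 genes per pathway list with the largest mean, and the 10 genes nearest to HBA1. Some genes of the lists are not reported here. Alternatives turned the sign of replicate 2, left out each array, centred arrays, changed the moderation, added the dye as a covariate, or used the scanner files with normexp and loess or without a filter.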

Additional observations from a re-analysis of the deposited data

How the results depend on the processing

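Each value is a ratio within an array, so the fit is already paired by array. The count of probes past the threshold was 0 and lay between 0 and 796 when 1 array was left out, the 796 being without replicate 1; it was 0 under the other alternatives run. The count of other pathway genes was 0 under every alternative run. Of the member means, 4 moved by more than their SD: ALAS2 was 0.28 and CA2 0.019 with the sign of replicate 2 turned, and CA2 was 1.4e-05 with normexp and loess and 0.025 as the median of its probes. Turning that sign also put HBA1, HBB2, BPGM, FECH and EPB41 on the other side of 0, within 1 SD. With 1 array left out HBB2 lay between -3.68 and -0.48, HBA1 between -2.01 and 0.044 and ALAS2 between -1.47 and -0.44. The direction of HBB2 and HBA1 on replicates 1 and 3 held from raw signals and after normexp and loess, where HBB2 had 2.35 and -3.70 and HBA1 1.62 and -1.75. Centring raw signals on the array median was added after seeing the data; HBB2 then had 2.97 and -3.37. For the other genes, 15 values of single arrays moved by more than the SD. Without and with that centring, raw signals gave CA2 1.25 and 0.31 on replicate 1 and 0.47 and 0.24 on replicate 3, EPB41 0.47 and -0.47 on replicate 1 and -0.24 and -0.47 on replicate 3, BPGM 1.61 and 0.67 on replicate 1, and FECH 0.21 and -0.74 on replicate 1 and -0.05 and -0.28 on replicate 3. The array medians of raw ratios were 0.95 and 0.23 on replicates 1 and 3. With normexp and loess FECH had -0.04 and EPB41 -0.0015 on replicate 1. For the dim genes ALAS2, FECH and EPB41 signal over background limits what the arrays can show.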

Other observations

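Of the 14 probes outside the members that were at least 2-fold higher in frozen embryos on replicate 1 and at least 2-fold lower on replicates 2 and 3, 10 had no gene symbol. Of these, 5 belonged to 1 unnamed transcript on chromosome 11 of the files' coordinates, with ratios of 1.33 to 1.47, -1.65 to -1.53 and -1.88 to -1.80. The others with a symbol were 2 probes of WFDC2 and 1 each of LOC100344458 and FGD5. A probe described in the files as partial rabbit globin RNA, but tied to no globin gene there, had 0.15, -0.19 and 0.01 on replicates 1, 2 and 3. Another 2 probes, described as predicted zeta-globin-like genes, were outside the table, and each was well above background in 1 of 4 samples, a frozen one. Over the whole array 66.0% and 68.6% of probes were so in frozen samples of replicates 1 and 3, against 54.4% and 58.3% in vitrified samples. On the array concerned, the log2 signals were 3.84 in frozen against 3.62 in vitrified embryos for 1 probe and 4.48 against 4.06 for the other. The flags therefore do not show a higher signal in frozen embryos. These probes were chosen after their values were seen.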
